A study of Mus musculus with 12 samples.

Results

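The IFIT genes and the genes of ISG15 conjugation were examined in RNA sequencing of mouse pancreatic islets, as 10 genes taken by symbol from the full table of raw counts: Ifit1, Ifit2, Ifit3, Ifit3b, Isg15, Usp18, Uba7, Ube2l6, Herc6 and Rsad2. All 10 were found among the 55536 genes of the table, and all 10 were among the 19800 genes that passed the filter on low counts. There were 12 libraries of total RNA, 3 in each of 4 groups: control or Ptpn2-bKO islets, each untreated or given IFN-gamma, IL-1beta and TNF-alpha for 24 h. The comparisons ask how far these genes answer the cytokines and whether the answer differs where Ptpn2, a phosphatase that dampens JAK and STAT signalling, is labelled as deleted. Control islets are labelled PTPN2 +/+ in the titles and PTPN2 fl/fl as a genotype, and the others PTPN2 -/- and, in the protocol, bKO, taken to mean a beta-cell knockout. All mice were 16 weeks old and of a mixed C57BL/6J background. The sources used here do not name the driver of the deletion or say whether the controls carry a Cre transgene. Per the labels' protocols the 6 libraries of a genotype came from 3 mice, and which libraries share a mouse is not given, so p-values measure the spread between these libraries.

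Islets are clusters of hormone-secreting cells, mostly insulin-producing beta cells, with some macrophages, endothelial cells and other cells among them. When interferon binds its receptors, JAK kinases activate STAT proteins, and these join IRF9 in ISGF3, a factor that binds a DNA element called ISRE and switches on interferon-stimulated genes. IFIT proteins bind foreign RNA, such as viral RNA without the cap methylation of the cell's own messages, and block its translation. ISG15 is a small ubiquitin-like protein that an enzyme cascade attaches to other proteins: Uba7 activates it, Ube2l6 carries it, and in mice Herc6 is the main ligase. Usp18 removes ISG15 from proteins and also binds the interferon receptor and damps its signal. Rsad2 encodes viperin, a radical SAM enzyme that makes an antiviral nucleotide.

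Libraries held 47064061 to 107515565 counts. Ptpn2 checks the genotype labels. Its level, as CPM (counts scaled to library size), had a lowest, median and highest value of 30.3, 31.4 and 31.5 in control libraries without cytokines and 33.8, 35.5 and 36.7 in bKO ones. With cytokines these were 78.3, 88.9 and 90.4 for control and 84.2, 107 and 111 for bKO. Ptpn2 counts were thus not lower in the libraries labelled bKO, and a count over the whole gene does not test a deleted exon, so the genotype is used as labelled and these are called bKO libraries or islets below. The bKO cytokine replicate 2 stood apart on the second principal component, at -52.8 against 11.9 and 16.4 for the others of its group. In it the summed level of 10 endocrine markers was 101300 CPM against 163200 and 179900, and that of 5 ductal markers was 6038 CPM against 1875 and 2720. Most of that ductal sum was Spp1, at 5130 CPM. The summed level of 6 stellate cell markers was also higher in this library, at 6265 CPM against 2261 and 2447. Insulin was abundant in every group, with an Ins2 mean of 72958 to 104496 CPM. With cytokines, 0 of the 10 endocrine markers were called higher (adjusted p under 0.05) in either genotype. Called lower were 5 in control and 6 in bKO islets, beside 33.9% and 33.6% of all genes. Mafa, for 1, went from a mean of 468 to 30.0 CPM in control islets and from 310 to 18.7 CPM in bKO ones.

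Promoter stretches are shown for the members with the largest cytokine responses that hold an ISRE-like match, because these letters are the known docking site of ISGF3. They are from the RefSeq promoter table (build GRCm38.p6, 250 bases before to 50 bases after each start), in which 9 of the 10 members were matched and Usp18 was not. The capitals mark an ISRE-like match, searched on both strands as GAAA, any 2 bases and GAAA again, with overlapping matches merged.
Ifit1, chr19:34640749-34640849, plus strand: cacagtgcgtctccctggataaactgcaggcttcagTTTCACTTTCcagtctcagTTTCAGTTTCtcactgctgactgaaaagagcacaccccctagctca
Ifit3, chr19:34583337-34583452, plus strand: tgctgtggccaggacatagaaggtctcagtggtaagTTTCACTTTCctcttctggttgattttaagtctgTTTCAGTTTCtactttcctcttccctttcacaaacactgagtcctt
Isg15, chr4:156200839-156200932, minus strand: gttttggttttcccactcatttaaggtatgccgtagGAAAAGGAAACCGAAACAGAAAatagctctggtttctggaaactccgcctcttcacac
Rsad2, chr12:26456527-26456608, minus strand: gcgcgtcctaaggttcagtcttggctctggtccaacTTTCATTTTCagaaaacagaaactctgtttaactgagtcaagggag
The stretch of Ifit3b (chr19:34607733-34607848, plus strand) is the same as that of Ifit3 in 116 of 116 bases. Matches were found in 5 of the 9 members, namely Ifit1, Ifit3, Ifit3b, Isg15 and Rsad2, whereas 3.44% of the 32851 promoters of the table hold one. A longer form with CT after the second GAAA, which contains the shorter, was in Ifit1, Ifit3 and Ifit3b and in 0.271% of all promoters. Isg15 holds 3 overlapping matches between 78 and 57 bases before its start. The GAS-like letters TTCNNNGAA, an element known from genes that answer IFN-gamma, were in 1 member, Ifit2, and in 8.3% of all promoters, and the NF-kB-like letters GGG, any 2 bases and TTTCC were in 0 members and in 1.63% of promoters. Windows of Uba7, Ube2l6 and Herc6 held none of these letters.

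The IFIT genes lie in 1 cluster on chromosome 19 (GRCm38, GENCODE M21): Ifit2 at chr19:34550694-34576419, Ifit3 at chr19:34583531-34588731, Ifit3b at chr19:34607970-34613401 and Ifit1 at chr19:34640871-34650009, all on the plus strand. The other members are Isg15 (chr4:156199424-156200818, minus), Usp18 (chr6:121245906-121270917, plus), Herc6 (chr6:57581000-57664632, plus), Uba7 (chr9:107975505-107984060, plus), Ube2l6 (chr2:84798828-84810335, plus) and Rsad2 (chr12:26442746-26456452, minus). Close copies limit which reads can be given to which gene: 51.2% of the 50-base words in Ifit3 transcripts also occur in Ifit3b, and 12% of those in Herc6 transcripts occur in the overlapping Gm45193. Ifit2, Usp18 and Rsad2 share 0 such words with other genes.

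Cytokines raised all 10 members in control islets, by 7.98 to 70.2 times, and all 10 in islets labelled bKO, with adjusted p from 1.86e-10 to 7e-07 and from 2.57e-10 to 3.62e-06. In each genotype the 4 IFIT genes, Isg15 and Rsad2 had larger estimates than Uba7, Ube2l6, Herc6 and Usp18. Ifit2, which binds RNA and can promote cell death, was at 3.81, 3.74 and 4.44 CPM in untreated control libraries (replicates 1, 2 and 3) and at 273, 272 and 299 CPM with cytokines. That was the largest step of the members, a log2 fold change of 6.13 (SE 0.16, adjusted p = 1.86e-10), and the groups were far apart. Adjusted p-values here and below are Benjamini-Hochberg values over all genes tested, from the quasi-likelihood test of edgeR. In islets labelled bKO it went from 3.21, 3.11 and 2.46 CPM to 201, 149 and 199 CPM (log2 5.97, SE 0.16, adjusted p = 2.57e-10). Ifit1, the founding family member that binds RNA lacking cap methylation, rose from 9.46, 11.4 and 12.1 CPM to 228, 251 and 234 CPM in control islets, 21.6-fold. The same gene rose from 7.31, 8.24 and 5.77 CPM to 189, 134 and 186 CPM in bKO libraries, 23.9-fold.

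Ifit3, which stabilises the RNA binding of its partners, rose from 4.65, 7.53 and 10.5 CPM to 198, 193 and 206 CPM in control islets (log2 4.71, SE 0.30, adjusted p = 1.74e-07). Its untreated control libraries differ more than the treated ones do, and replicate 1 is lowest. In bKO libraries Ifit3 rose from 4.83, 5.12 and 2.77 CPM to 150, 146 and 199 CPM (log2 5.28, SE 0.31, adjusted p = 8.73e-08). Ifit3b, its near copy, rose from 2.47, 3.05 and 4.38 to 58.9, 58.7 and 58.4 CPM in control islets and from 1.70, 1.94 and 1.36 to 48.0, 39.7 and 58.7 CPM in bKO ones. Per base of exon, Ifit3b stood at a median of 0.365 of Ifit3 in untreated control libraries and 0.259 with cytokines, and at 0.331 and 0.257 in bKO libraries, values that shared reads can move.

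Isg15 rose from 2.80, 3.97 and 5.93 CPM to 80.3, 73.7 and 69.3 CPM in control islets, 17.5-fold, and from 2.37, 2.90 and 1.19 CPM to 71.1, 84.4 and 73.1 CPM in bKO ones, 35.3-fold. The treated levels overlap between the genotypes, and the untreated ones spread widely within each. Uba7, the activating enzyme, rose from 16.5, 24.0 and 20.05 to 143, 261 and 223 CPM in control islets and from 25.3, 27.3 and 21.1 to 161, 108 and 185 CPM in bKO ones (log2 3.37, SE 0.26, and 2.62, SE 0.25). Ube2l6, the conjugating enzyme, rose from 17.8, 23.5 and 20.7 to 234, 273 and 242 CPM in control islets and from 28.4, 26.9 and 27.9 to 228, 184 and 194 CPM in bKO ones (log2 3.60, SE 0.12, and 2.86, SE 0.12).

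Herc6, the ligase, had the smallest step of the members, from 6.89, 7.71 and 5.39 to 39.5, 61.4 and 58.4 CPM in control islets and from 9.39, 8.75 and 8.26 to 55.4, 52.5 and 45.3 CPM in bKO ones. Usp18, the protease that reverses the conjugation, rose 9.39-fold in control islets, from 11.0, 10.3 and 10.2 to 95.1, 105 and 96.2 CPM. In bKO libraries it rose 8.74-fold, from 7.47, 9.16 and 9.18 to 80.0, 67.2 and 78.5 CPM. Rsad2 rose from 7.67, 10.4 and 10.8 to 259, 332 and 275 CPM in control islets and from 6.78, 5.88 and 4.50 to 273, 176 and 301 CPM in bKO ones (log2 4.91, SE 0.24, and 5.45, SE 0.25).

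Read against the background, 26.8% of all tested genes were called higher with cytokines in control islets and 28.8% in bKO ones, so being called is common in these data. The size is less common: Ifit1, Ifit2, Ifit3, Ifit3b, Isg15 and Rsad2 rose at least 16-fold in each genotype, 6 of 10 members, against 1.42% and 1.54% of all genes tested. The members' median log2 change was 4.13 in control and 4.72 in bKO islets, beside -0.10 and -0.06 over all genes. No member overlapped between untreated and treated libraries in either genotype, as was so for 30.5% and 29.8% of all genes in the higher direction. The untreated libraries that serve as controls here also enter the comparison of genotypes.

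**Figure D1:**
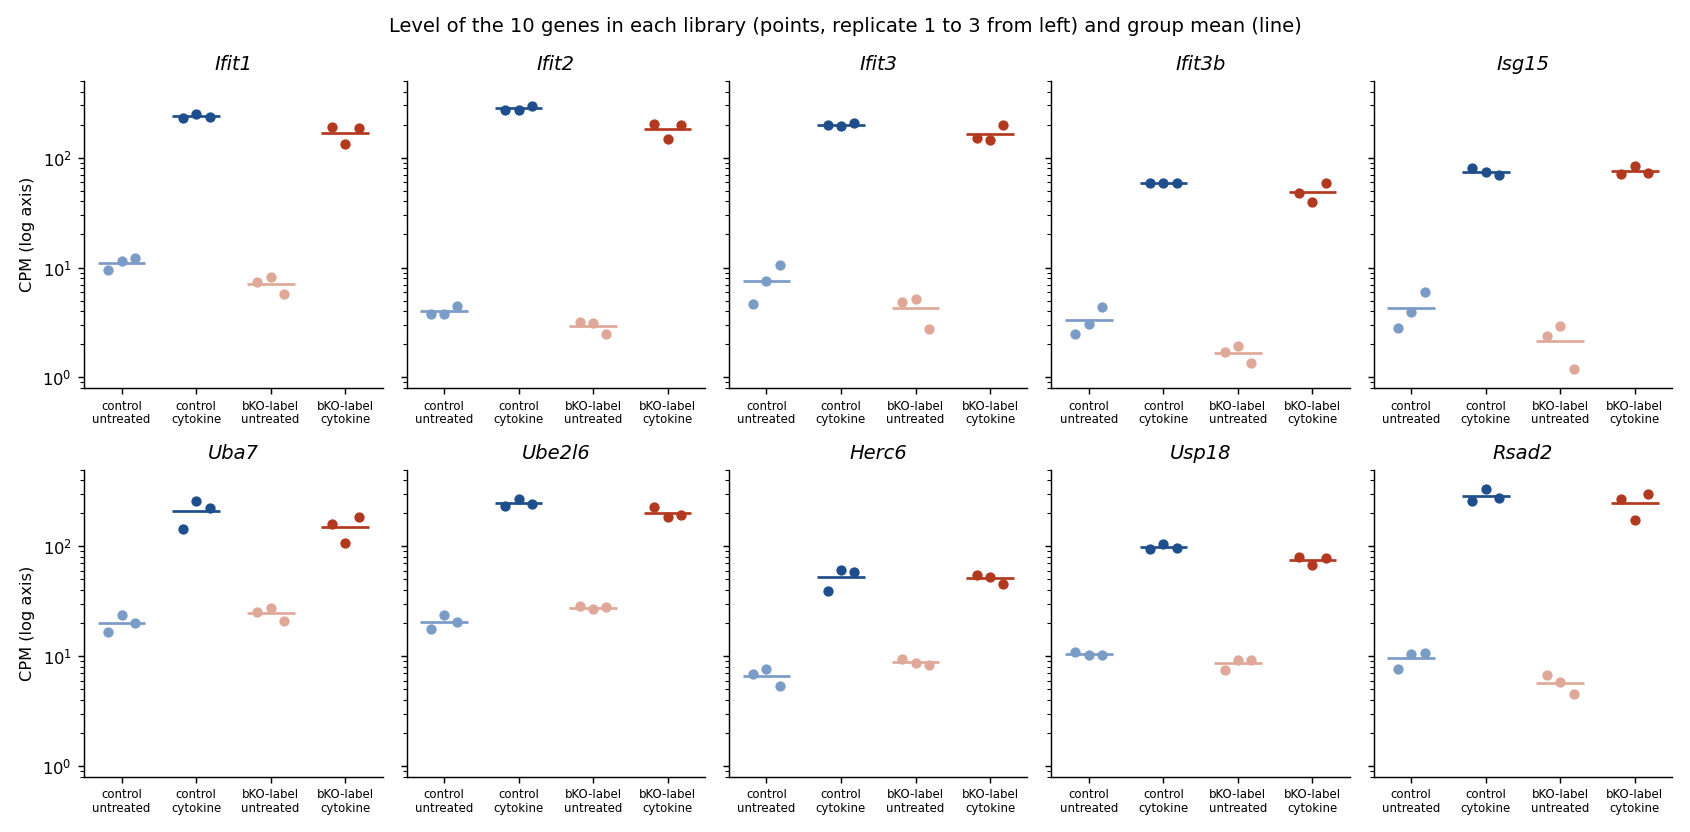
Level of each member in CPM (log axis) in the 12 libraries, in 4 groups of 3, with a bar at each group mean. Every treated library lies above every untreated one for all 10 members.

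**Figure D2:**
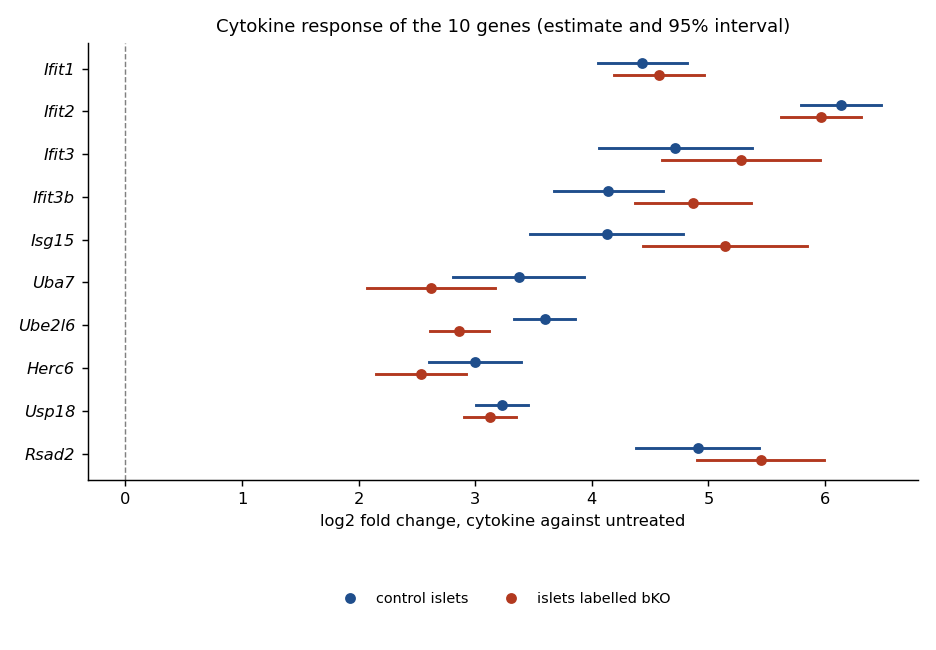
Log2 fold change of each member, cytokine against untreated, in control and bKO-labelled islets, with 95% confidence intervals. Estimates run from 2.54 for Herc6 in bKO islets to 6.13 for Ifit2 in control islets, and all intervals lie above 0.

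Macrophage markers moved with the cytokines too. Of 10 such markers, 9 rose in each genotype, and their summed level went from 197 to 237 CPM up to 550 to 652 CPM in control islets and from 191 to 260 CPM up to 589 to 771 CPM in bKO ones. The defining markers Adgre1 and Csf1r were present, at means of 4.82 and 20.7 CPM in untreated control islets and 9.56 and 38.1 CPM with cytokines. All 8 endothelial markers fell in both genotypes, beside 33.9% of all genes in control and 33.6% in bKO islets. In bulk samples fewer cells of a type and less RNA per cell cannot be told apart, and the part of these cells in the members' rise was not tested. The 9 T and NK cell markers summed to 3.65 to 5.36 CPM in untreated and 7.86 to 11.4 CPM in treated control libraries, and to 5.29 to 6.24 and 10.3 to 17.6 CPM in bKO ones. Most of that sum was Lck, which rose by log2 1.36 and 1.57, while Cd3e was at a mean of at most 0.064 CPM and Ncr1 at 0 counts in all libraries. Trac, of the same list, went down, from a mean of 0.695 to 0.139 CPM in control islets. In bKO ones Trac went from 0.595 to 0.197 CPM. The 5 plasmacytoid dendritic cell markers summed to 131 to 231 CPM in untreated and 18.7 to 29.4 CPM in treated control libraries, and to 77.7 to 104.5 and 25.9 to 56.8 CPM in bKO ones. Most of it was Klk1, at a mean of 183 CPM in untreated control islets, while Siglech was at a mean of at most 0.046 CPM. Klk1 was at 21.6 CPM in treated control islets, and at 89.6 and 33.5 CPM in bKO ones. The 6 acinar markers summed to 4101 to 6652 CPM in untreated and 816 to 1328 CPM in treated control libraries. In bKO libraries these were 1821 to 2980 and 707 to 2651 CPM. Which cells the Klk1 counts came from was not tested.

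Levels per kb of exon allow genes to be compared, within a limit. The length joins all annotated exons of a gene, not those of the transcript expressed, so the order depends on the annotation. On this scale Ube2l6 stood highest in all 4 groups, at means of 10.4 and 125 CPM per kb in untreated and treated control islets and 13.9 and 101 in bKO ones. In untreated islets its range lay apart from the next gene, and with cytokines it overlapped Ifit3 in control and Isg15 in bKO islets. Herc6 was lowest in 3 groups, at 5.71 CPM per kb in treated control islets, and Ifit2 was lowest in untreated bKO islets, with ranges that overlapped those of Ifit3b. In control islets Ifit2 went from place 9 of the 10 members, at 1.02 CPM per kb, to place 5 with cytokines, at 71.6. The median Usp18 to Isg15 ratio per kb, the deconjugating protease against its modifier, was 0.704 in untreated and 0.376 in treated control libraries, and 0.855 and 0.291 in bKO ones. The untreated ranges were 0.467 to 1.06 in control and 0.853 to 2.09 in bKO libraries, which overlap, and the treated ones were 0.321 to 0.385 and 0.216 to 0.305. The value of 2.09 is from untreated bKO replicate 3, in which Isg15 was lowest.

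**Figure D3:**
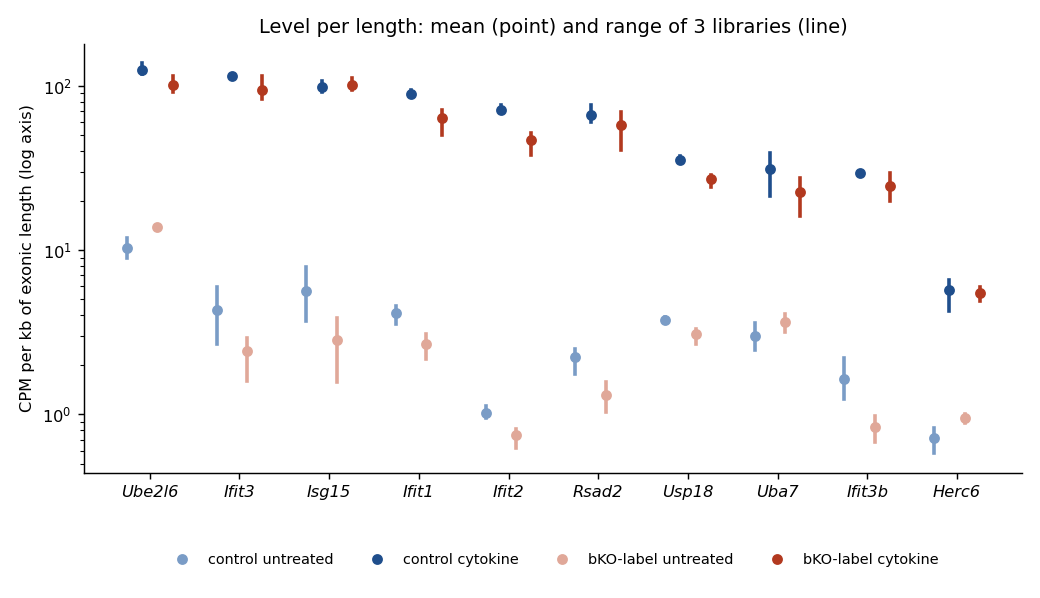
Level in CPM per kb of exon (log axis) of each member in the 4 groups, as the mean (point) and range of 3 libraries (line). Ube2l6 is highest in each group, and Ifit2 moves from the low end to the middle of the order with cytokines.

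In untreated islets the genotype labels separated no member by the test. Of the 10, 0 were called (smallest adjusted p 0.227, for Ifit3b), where 0.0758% of all genes were called higher and 0% lower, while 9 had an unadjusted p under 0.05, against 5.55% of all genes. DESeq2 called 1, Ifit3b. Estimates were below 0 for 7 members, beside 52.4% of all genes, and above 0 for 3. Ifit3b was lower in bKO libraries, by a log2 of -0.99 (95% interval -1.46 to -0.52), and its 3 control libraries all lay above the 3 bKO ones. Isg15 had an estimate of -0.98 (SE 0.30, adjusted p = 0.523), but its lowest control library, at 2.80 CPM, lies below the highest bKO one, at 2.90. Ifit3 (-0.84), Rsad2 (-0.75), Ifit1 (-0.63), Ifit2 (-0.45) and Usp18 (-0.29) also had estimates below 0. The conjugating enzymes had estimates above 0: Ube2l6 at 0.42 (adjusted p = 0.332), Herc6 at 0.40 and Uba7 at 0.29. Groups did not overlap for 7 members, 5 lower in bKO (Ifit1, Ifit2, Ifit3b, Usp18 and Rsad2) and 2 higher (Ube2l6 and Herc6), beside 7.94% and 8.24% of all genes. Acinar markers moved with these labels, with summed levels of 4101 to 6652 CPM in untreated control and 1821 to 2980 CPM in untreated bKO libraries, and their part in these differences was not tested.

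With cytokines, 9 of 10 estimates were below 0 in bKO islets, beside 49.1% of all genes, and Isg15 was at 0.03. The signs of Isg15 and Herc6 turned when single libraries were left out. Again 0 members were called, beside 0.141% of all genes called higher and 0.0909% lower. Ifit2 came closest, at 281 CPM (SD 15.5) in control and 183 CPM (SD 29.6) in bKO libraries, a log2 difference of -0.62 (95% interval -0.89 to -0.35, adjusted p = 0.0698). It was called by DESeq2, as was Usp18, by limma-voom, without the filter and without bKO cytokine replicate 1 (-0.69, adjusted p = 0.0361). Those 4 settings called 294, 32, 63 and 191 of all genes higher and 406, 18, 127 and 253 lower. In 16 other settings, all with edgeR, Ifit2 was not called, with adjusted p up to 0.405. A fit of only the groups compared called 0 of all genes. Usp18 stood at -0.39 (adjusted p = 0.099), Ifit1 at -0.49 (0.162) and Ube2l6 at -0.31 (0.198). These 4 are the members whose groups did not overlap, all lower in bKO, beside 10.8% of all genes in that direction and 6.94% in the other, and the 4 with an unadjusted p under 0.05, beside 17.8%. Replicate 2 of the bKO cytokine group, which stood apart, was lowest in 8 of 10 members, and without it Ifit2 was at -0.50 (adjusted p = 0.052), Ifit1 at -0.36, Usp18 at -0.33 and Ube2l6 at -0.26. Without it Rsad2 went from -0.21 to -0.03.

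**Figure D4:**
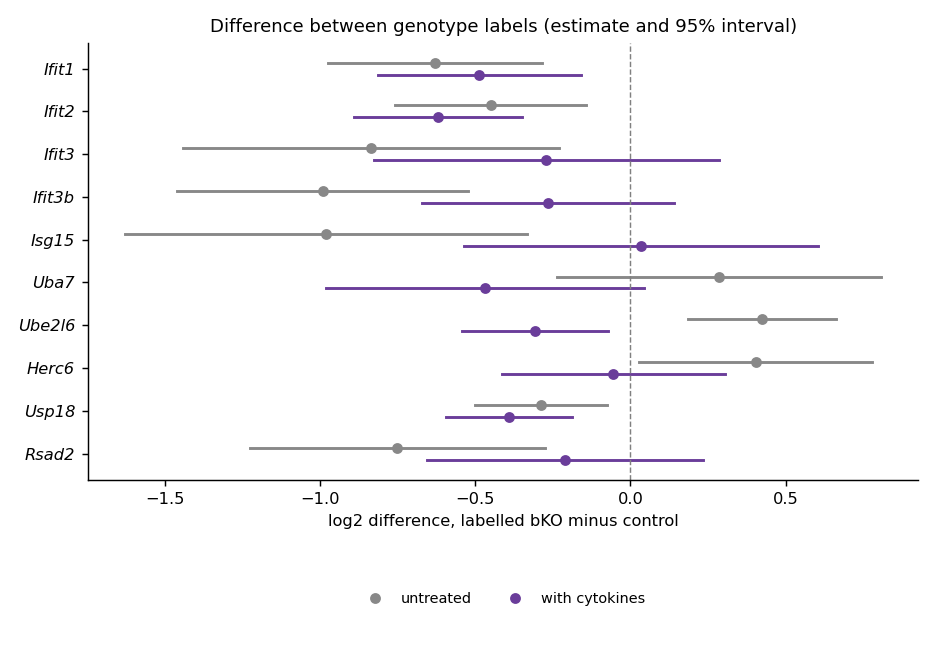
Log2 difference of each member, bKO-labelled minus control, in untreated and cytokine-treated islets, with 95% confidence intervals. Estimates are mixed in sign without cytokines and almost all at or below 0 with them, and 0 members pass the threshold in either.

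The difference between the cytokine responses, bKO minus control, was not called for any member, nor for any of the 19800 genes, and 4 members had an unadjusted p under 0.05, beside 10.9% of all genes. Ube2l6 had the smallest p, with a difference of -0.73 on the log2 scale (95% interval -1.07 to -0.40, adjusted p = 0.251 by edgeR); DESeq2 called it, as its 1 member. Isg15 was at 1.01 (adjusted p = 0.406), Ifit3b at 0.73 (0.407) and Uba7 at -0.75 (0.447), so the ISG15 modifier and its enzymes had estimates of opposite sign. The 5 members with ISRE-like letters in their promoter (Ifit1, Ifit3, Ifit3b, Isg15 and Rsad2) were the 5 with a difference above 0, from 0.14 for Ifit1 to 1.01 for Isg15, beside 51.1% of all genes above and 48.9% below 0. Leaving out single libraries moved Ifit1 between 0.01 (without untreated bKO replicate 3) and 0.28 (without treated bKO replicate 2). Ifit3, at 0.56, moved between 0.25 and 0.82, without untreated control replicates 3 and 1. Of the other 5, Usp18 had no promoter in the table and the rest held no match. The neighbouring genes Ifit1bl1 and Ifit1bl2 also hold ISRE-like matches, and their differences were below 0, at -0.81 and -0.38. This grouping of members was seen after the values and is a description of estimates that do not pass the test.

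Libraries of a group deviated together for most members. In the plot of deviations, untreated control replicate 1 was the lowest of its group in 7 of 10 members, untreated bKO replicate 3 in 8 and treated bKO replicate 2 in 8. Over the 12 libraries, the deviations from the group mean of a member had a Pearson correlation with the mean of the other members of 0.939 for Ifit1 and 0.884 for Rsad2, but of -0.01 for Usp18 and -0.02 for Herc6. These values describe 12 libraries that differ in depth and in marker levels. Isg15 varied most, with log2 deviations of -0.53, -0.03 and 0.55 in untreated control and 0.23, 0.52 and -0.76 in untreated bKO libraries.

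**Figure D5:**
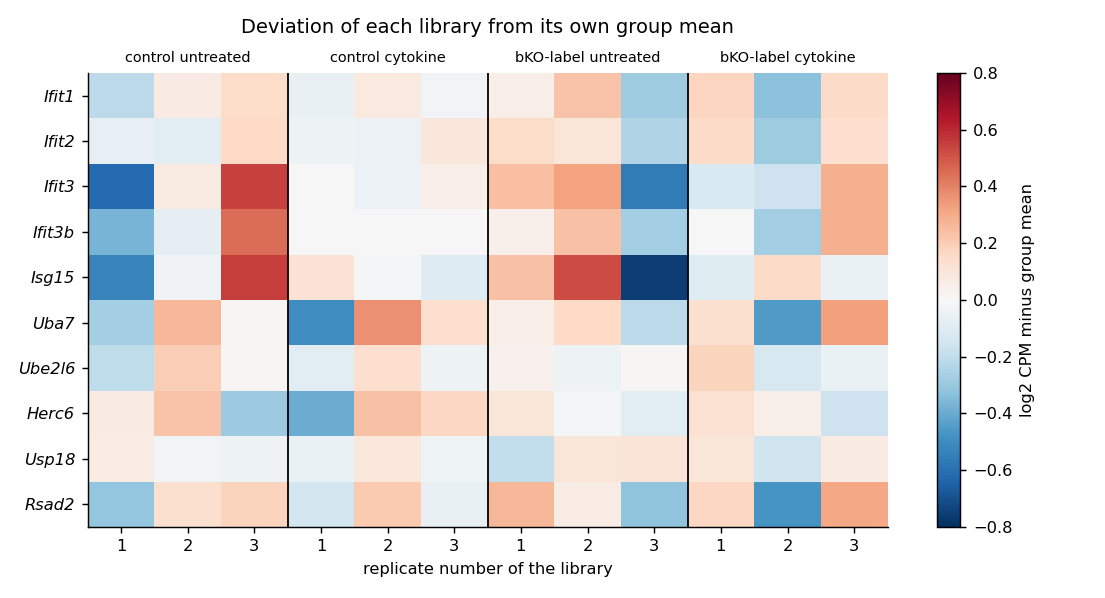
Log2 deviation of each member (row) from its group mean, as colour, in the 12 libraries (columns, by group and replicate). Untreated control replicate 1, untreated bKO replicate 3 and treated bKO replicate 2 are low for most members.

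Genes most like the members over the 12 libraries, by Pearson correlation of log2 CPM with the members' mean, were Il4i1 (0.9994), Xaf1 (0.9992), Hspa1a (0.9983), Oasl1 (0.9982), Dhx58 (0.9981) and Parp12 (0.998). High correlations are frequent here at a lower cut, since 1680 of 14643 genes reached 0.95. Il4i1, an L-amino acid oxidase, rose by log2 6.51 (SE 0.29) in control and 6.33 (SE 0.29) in bKO islets. Xaf1, an interferon-induced promoter of cell death, rose by 4.47 and 4.63. In the likeness of deviations, Lrg1 (0.9833), Il4i1 (0.9784) and Oas1g (0.9477) led.

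A list of 19 other genes joined components of the ISG15 system with related enzymes of ubiquitin, such as Uba1 and Otulin. Of these 19, 10 rose and 6 fell in control islets, and 10 rose and 4 fell in bKO ones, with list medians of 0.26 and 0.30. For this and the next lists, the background is 26.8% of all genes called higher and 33.9% lower in control islets, and 28.8% and 33.6% in bKO ones, so the falls here, 6 and 4 of 19, are not more frequent than that. Ubiquitin-family enzymes made small steps. Ube2e2, a conjugating enzyme, rose by log2 1.24 and 1.18, Ube2e1 by 0.54 and 0.55, Trim25, a ligase that can itself be tagged with ISG15, by 0.57 and 0.51, Herc4 by 0.67 and 0.45, Otulin, which cuts linear ubiquitin, by 0.82 and 0.72, Uba1, which activates ubiquitin, by 0.36 and 0.34, Usp14 by 0.30 and 0.30 and Arih1 by 0.26 and 0.40. Itgb2 and Itgal, the 2 chains of the leukocyte receptor that binds secreted ISG15, rose by 2.65 and 2.53 and by 1.51 and 1.57. The genes that fell in both were Herc3 (-0.62 and -0.93), Usp20 (-0.68 and -1.02), Usp21 (-0.31 and -0.49) and Skp2 (-0.93 and -0.80). Usp5 (-0.24) and Usp24 (-0.46) fell in control islets, and were at -0.17 and -0.16 without passing the test in bKO ones. Ube2l3 (-0.07 and 0.02), Uba6 (-0.23 and -0.17) and Usp16 (0.00 and -0.20) did not pass in either. No gene of this or the next lists was called between genotypes.

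The neighbouring IFIT genes of chromosome 19 moved with the members. Ifit1bl1 went from 0.689 to 17.2 CPM in control and from 0.608 to 8.79 CPM in bKO islets (log2 4.66 and 3.85), and Ifit1bl2 by 2.37 and 1.99. The start of Ifit1bl2 lies 127 bases from that of Ifit1 on the other strand. The promoter stretch printed for Ifit1 is thus also that of Ifit1bl2, the same place in the genome read on the other strand. Ifit1bl1 stood at -0.97 between genotypes with cytokines (adjusted p = 0.0829). Of the 11 partners of IFIT proteins and cap-methylation genes, 5 rose and 2 fell in each genotype (26.8% and 28.8% of all genes rose and 33.9% and 33.6% fell), with Tbk1, a kinase of RNA sensing, at 1.05 and 0.75, the translation factors Eif3c at 0.91 and 0.77 and Eif3e at 0.74 and 0.88, Tmem173, the DNA-sensing adaptor STING, at 1.35 and 1.94 and Pnpt1 at 0.44 and 0.29. Of 8 tested viperin partners, 5 rose and 1 fell in control islets and 6 rose and 1 fell in bKO ones, against the same background. Cmpk2, the nucleotide kinase next to Rsad2, went from 22.4 to 120 CPM in control islets (log2 2.42), Plin2, a lipid-droplet coat, rose by 1.62 and 1.97, Traf6 by 0.75 and 0.64 and Fdps by 1.07 and 0.88, and Ciao1 fell by 0.60 and 0.48.

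Of the 12 genes of the interferon receptor and ISGF3 list, 9 rose and 0 fell in control islets, where 26.8% of all genes rose and 33.9% fell, and 10 rose and 2 fell in bKO ones (28.8% and 33.6%). Irf1, a factor that also binds ISRE-like letters, rose by log2 3.74 and 3.51, Stat2 by 3.24 and 2.14, Irf9 by 2.36 and 1.66 and Ifnar2 by 1.26 and 1.21. In treated islets Stat2 stood at 386 CPM in control and 236 CPM in bKO (-0.71, adjusted p = 0.109) and Irf9 at 136 and 91.4 CPM (-0.57, adjusted p = 0.0682), so neither passed the test. Among 19 interferon ligand genes, Ifnl2 and Ifnl3, close copies that encode lambda interferons, had 0 counts in all untreated libraries. With cytokines they had 74 to 160 and 81 to 233 counts in control libraries and 38 to 106 and 76 to 106 in bKO ones. Raw counts depend on depth, and scaled to library size the genotypes were close. The treated means were 1.55 CPM in control and 1.69 CPM in bKO islets for Ifnl2, and 2.12 and 1.97 CPM for Ifnl3. Against a floor of 3 counts over the group, these were at least 107-fold and 146-fold higher in control islets. In bKO islets they were at least 112-fold and 130-fold higher. Ifnb1 was at 0 counts without cytokines and at 8 to 29 in control and 3 to 7 in bKO libraries with them, too few to pass the filter. Its treated means were 0.225 CPM in control and 0.111 CPM in bKO islets. The other 16 ligand genes had at most 3 counts in any library.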

How the data were processed

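Islet RNA of the 12 libraries was sequenced on an Illumina NovaSeq, per the labels' protocols. The authors deposited raw whole-number counts per gene, for 55536 genes in the full table used here. The build GRCm38 and the tools STAR 2.5.2a, featureCounts 1.6.2 (Subread), cutadapt 1.16, FastQC 0.11.7, DESeq and DESeq2 1.30.0 are named, per the submitters' processing notes. The sources used here do not give the annotation or the strand setting of the counting, which leaves overlapping genes and close copies uncertain.

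From the counts, edgeR 4.0.16 in R 4.3.3 was run with filterByExpr (19800 genes), TMM scaling, 1 coefficient per group over 12 libraries, the quasi-likelihood test and Benjamini-Hochberg adjustment over all genes at 0.05. There were 5 comparisons. The levels are CPM of the TMM-scaled library, and exonic lengths and positions are from GENCODE M21. The smallest chi-square per degree of freedom between libraries of a group was 15.0, so none was counted as a copy. Libraries of equal replicate number did not deviate together (correlations -0.10 to 0.12), so the numbers were not used as pairs. Steps were tested on simulated data. Alternatives were DESeq2 1.42.0 and its size factors, limma-voom (limma 3.58.1), library totals alone, no filter, 1 CPM in 3 libraries, stricter thresholds, only the groups compared, leaving out each library, and a replicate block.

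Members and gene lists were chosen with earlier results of these data known. Named genes are the members, Ptpn2, up to 5 per list by smallest adjusted p with cytokines, all of the ISG15 list, and the 6 genes most like the members, with 3 by deviation. A gene that this rule names is not reported here.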

Additional observations from a re-analysis of the deposited data

How the results depend on the processing

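Under the alternatives all 10 members stayed higher with cytokines in both genotypes, in each of 23 settings, and 1008 single-member results kept direction and side of the threshold, while 7 newly passed it and 5 turned. With a replicate block the counts were 10, 10, 0, 0 and 0, the numbers not being used as pairs because the correlations of deviations ranged from -0.10 to 0.12. For the untreated genotype comparison DESeq2 called 1 member, Ifit3b (-0.98, adjusted p = 0.00438), against 0 by edgeR. For the treated genotype comparison no filter called 1 (Ifit2, adjusted p = 0.022), limma-voom 1 (Ifit2, 0.0379), DESeq2 2 (Ifit2, 0.00235, and Usp18, 0.0216) and leaving out single libraries 0 to 1 (Ifit2, 0.0361, without bKO cytokine replicate 1). For the difference in response DESeq2 called 1, Ube2l6 (-0.75, adjusted p = 0.0137). Over all genes DESeq2 called 92 higher and 36 lower, 294 and 406, and 100 and 86 in these comparisons, against 15 and 0, 28 and 18, and 0 and 0. Between genotypes with cytokines, no filter called 63 genes higher and 127 lower, and limma-voom 32 and 18. Without bKO cytokine replicate 1 these were 191 and 253, so more genes passed there in general. In the treated genotype comparison the direction turned for Isg15, with -0.0609 to 0.0905 when libraries were left out, and for Herc6, with -0.231 to 0.0619. With library totals alone the median of all genes moved from -0.10 and -0.06 to -0.33 and -0.29 with cytokines, calling 3737 higher and 8998 lower in control islets against 5298 and 6704, while the members' medians were 3.90 and 4.49. Libraries hold 47064061 counts or more, but untreated members fall to 77 counts (Isg15) and 88 counts (Ifit3b) in single bKO libraries, so counting error is larger there.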
